A study of Mus musculus with 2 samples.

Results

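The adenylyl cyclases are the enzymes that make cyclic AMP (cAMP), and the mouse genome encodes them in the genes Adcy1 to Adcy10. All 10 were found by symbol among the 43346 mouse gene identifiers of the deposited gene tables, and their 33 annotated transcripts were taken from the transcript tables. The data come from the adrenal gland of C57BL/6J mice at 8 weeks of age, littermates of mixed sex with no treatment named. There was 1 group with 2 libraries, biological replicates 1 and 2, which the labels tie to the same donor identifier, and the number of glands per library is not stated there. RNA over 200 nt was depleted of ribosomal RNA, selected for poly(A) and sequenced with strand as read pairs of 76 nt with spike-in RNAs.

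The genes other than Adcy10 encode membrane enzymes that are switched on by the stimulatory G protein alpha subunit and tuned differently by calcium, inhibitory G proteins and G protein beta-gamma subunits. Adcy10 encodes a soluble enzyme that responds to bicarbonate and calcium and is best known from sperm. In the adrenal cortex, corticotropin acts through its receptor Mc2r, the stimulatory G protein and cAMP to drive steroid synthesis, and in chromaffin cells of the medulla cAMP regulates the synthesis and release of catecholamines.

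The libraries held 48059863 and 53294872 expected counts. Marker genes placed them in the adrenal gland: the summed level of the 6 cortex markers was 22545 TPM in replicate 1 and 30411 TPM in replicate 2, and that of the 6 chromaffin markers was 3904 and 3602 TPM. TPM is the length-corrected share of a transcript in its library. Fat markers were also present, at a sum of 15512 TPM in replicate 1 and 6959 TPM in replicate 2, with all 8 of 8 detected. Markers of sympathetic neurons were low but unequal, at 16.4 and 3.99 TPM, and 4 liver markers summed to 4.40 and 29.8 TPM. In bulk tissue, fewer cells of a type and less RNA per cell cannot be told apart.

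Several members have more than 1 annotated transcript, and short sequences tell some of these apart. In Adcy3, exon 16 is annotated with alternative starts 3 bases apart on the plus strand (GRCm38, chr12:4208577-4208579). The coding bases around that junction are shown for a transcript with the 3 extra bases, in capitals. They are also shown for the most abundant transcript, which lacks these bases. The capitals mark the extra bases CAG and not a codon of the reading frame.
Adcy3-204: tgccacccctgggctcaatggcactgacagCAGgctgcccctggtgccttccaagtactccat
Adcy3-207: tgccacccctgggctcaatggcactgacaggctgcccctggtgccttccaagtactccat

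In Adcy9, the transcript Adcy9-203 lacks a stretch of 223 bases that Adcy9-202 keeps as coding sequence (GRCm38, chr16:4418973-4419195, minus strand). Its first and last 2 bases, in capitals, are GT and AG, the usual ends of an intron. The 15 bases on either side of both ends in Adcy9-202 are shown because this stretch separates the annotated protein of 1353 residues from one of 1116 residues, which is 237 residues shorter.
Adcy9-202 at the 5′ end: ccagcgccgcttccgGTacgcactctttta
Adcy9-202 at the 3′ end: accctggctgcgcAGtttcaggtttggaca

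Start regions differed in base composition between members. Windows of 250 bases before annotated start sites (RefSeq, GRCm38.p6) were given for 8 of the 10 members, 11 windows in all. The motifs searched on both strands were the GC box GGGCGG, the cAMP response element TGACGTCA and the TATA box TATAAA. The GC box was in 6 of the 11 windows, against 32.7% of all 32817 windows, the cAMP response element was in 0 of 11 against 1.55%, and the TATA box was in 0 of 11 against 12.4%. GC content was 78.8% in the Adcy9 window, which lies before the start of Adcy9-203, and 78.0% before Adcy5. It was 54.0% before the start of Adcy7-202, with a median of 52.4% over all windows. These 3 windows are shown for the member with the highest level, the member with a difference of 2.02-fold between the libraries and a member whose transcripts differed in share, with GC boxes of either strand in capitals (chr16:4420499-4420748, minus strand, chr16:35154614-35154863, plus strand, and chr8:88282742-88282991, plus strand).
Adcy9: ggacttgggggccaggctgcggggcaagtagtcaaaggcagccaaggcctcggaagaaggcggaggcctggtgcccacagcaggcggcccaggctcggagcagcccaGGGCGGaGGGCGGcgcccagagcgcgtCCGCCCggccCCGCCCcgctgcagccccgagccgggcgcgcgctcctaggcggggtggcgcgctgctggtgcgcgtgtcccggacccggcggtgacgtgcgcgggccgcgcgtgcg
Adcy5: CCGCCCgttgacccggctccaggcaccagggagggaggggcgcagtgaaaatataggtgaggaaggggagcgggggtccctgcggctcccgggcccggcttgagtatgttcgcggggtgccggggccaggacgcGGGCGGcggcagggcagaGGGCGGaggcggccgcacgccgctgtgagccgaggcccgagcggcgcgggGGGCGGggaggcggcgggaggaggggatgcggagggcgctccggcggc
Adcy7-202: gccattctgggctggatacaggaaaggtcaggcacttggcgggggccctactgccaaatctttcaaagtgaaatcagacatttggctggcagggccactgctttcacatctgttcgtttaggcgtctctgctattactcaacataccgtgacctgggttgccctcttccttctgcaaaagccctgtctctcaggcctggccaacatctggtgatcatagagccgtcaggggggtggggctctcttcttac
The Adcy9 and Adcy5 windows each hold 4 GC boxes and the Adcy7-202 window holds 0. A match is a description of these letters and not a binding site.

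The gland's cyclase transcripts were dominated by 4 genes. Adcy9, Adcy6, Adcy3 and Adcy5 together made up 86.3% of the family's summed TPM in replicate 1 and 88.4% in replicate 2. The family summed to 145 TPM in replicate 1 and 140 TPM in replicate 2, or 143 ± 3.37 TPM (SD, n = 2). Of the 10 members, 7 were detected, meaning at least 1 TPM in both libraries, while 54.6% of 21474 protein-coding genes were. The 3 that were not are Adcy2, Adcy8 and Adcy10. Gene positions below are on mm10.

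**Figure D1:**
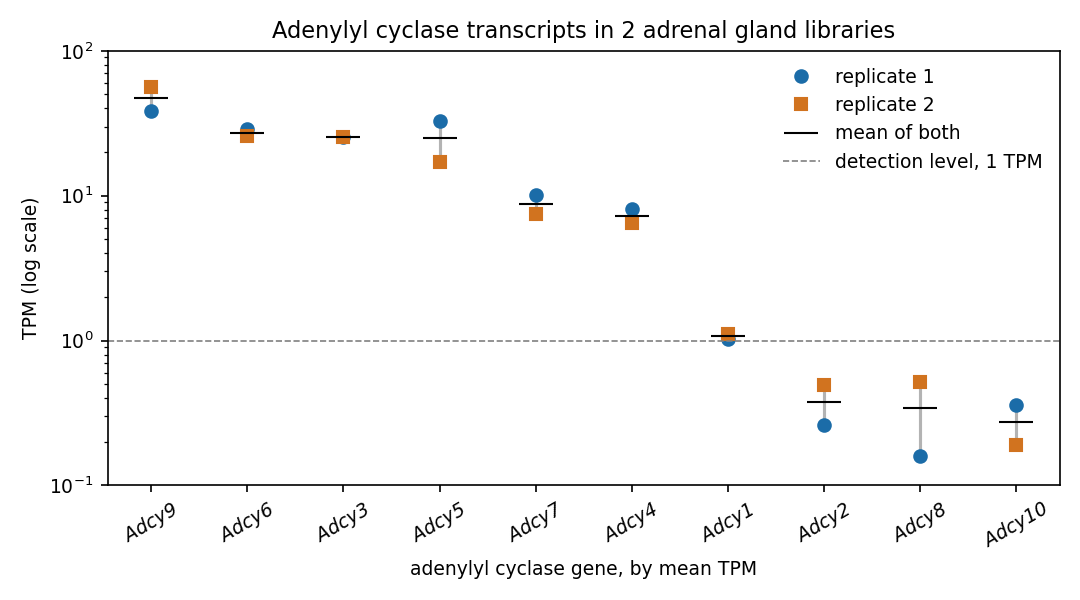
Level of each member in TPM on a log axis, with a point for each library, a bar for the mean and a dashed line at 1 TPM. Adcy9 is highest in both libraries, Adcy6, Adcy3 and Adcy5 follow, and Adcy2, Adcy8 and Adcy10 lie below the line in both.

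Adcy9 (ENSMUSG00000005580.7, chr16:4287529-4420498, minus strand) encodes the membrane cyclase that is least sensitive to forskolin. It had 38.4 TPM in replicate 1 and 56.3 TPM in replicate 2 (47.4 ± 12.7 TPM, SD, n = 2), above 85.6% of protein-coding genes. It ranked first among the members in both libraries, with 26.4% of the family's TPM in replicate 1 and 40.1% in replicate 2. Its lead over Adcy5 was 1.16-fold in replicate 1 and 3.32-fold in replicate 2, so the size of the lead differed between the libraries.

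Adcy5 and Adcy6 encode the cyclases that calcium and inhibitory G proteins restrain, and they are the main forms of the heart. Adcy6 (ENSMUSG00000022994.8, chr15:98589973-98610076, minus strand) had 28.7 TPM in replicate 1 and 25.6 TPM in replicate 2 (27.1 ± 2.16 TPM, SD, n = 2). Adcy5 (ENSMUSG00000022840.8, chr16:35154877-35305738, plus strand) had 33.0 and 16.9 TPM (25.0 ± 11.4 TPM, SD, n = 2) and so stood at rank 2 in replicate 1 and rank 4 in replicate 2. Together they held 42.5% of the family's TPM in replicate 1 and 30.3% in replicate 2.

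Adcy1, Adcy3 and Adcy8 encode the cyclases stimulated by calcium and calmodulin, and Adcy3 nearly alone carried this class. Adcy3 (ENSMUSG00000020654.11, chr12:4133103-4213525, plus strand), known for its role in olfactory cilia, had 25.2 TPM in replicate 1 and 25.3 TPM in replicate 2 (25.3 ± 0.0354 TPM, SD, n = 2). Adcy1 (ENSMUSG00000020431.5, chr11:7063489-7178506, plus strand), best known from neurons, had 1.03 and 1.11 TPM (1.07 ± 0.0566 TPM, SD, n = 2), just above the detection level. Adcy8 (ENSMUSG00000022376.7, chr15:64697084-64922296, minus strand), a neuronal and islet form, had 0.160 and 0.520 TPM from 27 and 93 counts. The class held 18.2% and 19.2% of the family's TPM.

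Adcy2, Adcy4 and Adcy7 encode the cyclases that G protein beta-gamma subunits stimulate further. Adcy7 (ENSMUSG00000031659.8, chr8:88272403-88329962, plus strand), abundant in blood cells, had 10.03 TPM in replicate 1 and 7.48 TPM in replicate 2 (8.75 ± 1.80 TPM, SD, n = 2). Adcy4 (ENSMUSG00000022220.9, chr14:55769057-55784095, minus strand), known from endothelium, had 8.05 and 6.47 TPM (7.26 ± 1.12 TPM, SD, n = 2), and its range overlapped that of Adcy7. Adcy2 (ENSMUSG00000021536.7, chr13:68620043-68999541, minus strand) had 0.260 and 0.490 TPM from 37 and 73 counts. The class held 12.6% and 10.3% of the family's TPM.

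Adcy10 (ENSMUSG00000026567.12, chr1:165485183-165576774, plus strand), the soluble form, was the lowest by mean, with 0.360 TPM in replicate 1 and 0.190 TPM in replicate 2 from 27 and 18 counts. It held 0.248% and 0.135% of the family's TPM. By the deposited posterior mean of TPM its mean level was 0.455 TPM instead of 0.275 TPM, above Adcy2 at 0.380 TPM and Adcy8 at 0.340 TPM, so its place among the lowest 3 depends on the estimate. Of 4 sperm and testis markers, 3 were at 0 in both libraries and Prm2 had 0 and 0.190 TPM.

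By mean TPM the order was Adcy9, Adcy6, Adcy3, Adcy5, Adcy7, Adcy4, Adcy1, Adcy2, Adcy8 and Adcy10. The ranges of the libraries overlapped between Adcy3 and Adcy5, between Adcy7 and Adcy4, between Adcy2 and Adcy8 and between Adcy8 and Adcy10, so those neighbours were not separated. Adcy5 also overlapped Adcy6. The ranks of Adcy9, Adcy7, Adcy4, Adcy1 and Adcy2 were the same in both libraries.

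The members' reads could be assigned to single genes almost without ambiguity: the deposited posterior SD of the count was at most 0.32 reads for any member. Of the genes that overlap a member, Cenpo had counts, 481 in replicate 1 and 674 in replicate 2. It overlaps Adcy3 over 17522 bases on the opposite strand. The libraries keep strand, but whether the counting used it was not given in the sources used here.

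Next the libraries were compared with each other. With 1 group this sets the reads of 1 library against those of the other and not conditions, and it covers counting error only. A gene was called at an adjusted p under 0.05 and at least 2-fold (two-sided exact binomial test on scaled counts, Benjamini-Hochberg over 15824 genes). Of the 10 members, 2 were called, against 6.92% of all genes tested: Adcy5, higher in replicate 1, and Adcy8, higher in replicate 2. By the adjusted p alone, 8 of 10 differed, against 58.3% of all genes, and 5 of them were higher in replicate 1, of which 3 turned to the other direction under spike-in scaling. The median log2 ratio of replicate 1 over replicate 2 was 0.16 for the members and -0.004 for all genes tested.

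Adcy5 had 7823 expected counts in replicate 1 and 4294 in replicate 2. Its log2 ratio was 1.01 (95% interval 0.96 to 1.07), or 2.02-fold, with an adjusted p of 4.89e-312 by the two-sided exact binomial test. The interval spans the 2-fold limit. The SD of the log2 ratio over all genes of that depth, 10000 or more summed counts, was 0.35. When the spike-ins set the scale, the log2 ratio was 0.58 and Adcy5 was no longer called.

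Adcy8 had a log2 ratio of -1.62 (95% interval -2.31 to -1.01), or 3.07-fold higher in replicate 2, with an adjusted p of 8.56e-08 by the two-sided exact binomial test. It was called under every scaling tried. Its 120 counts in all lie near the lower edge of the depth from 100 to below 1000 summed counts. The SD of the log2 ratio over genes was 0.62 there and 1.33 from 20 to below 100. Both of its levels were below 1 TPM. With edgeR's exact test and an assumed biological coefficient of variation of 0.2, neither gene was called: the adjusted p was 0.339 for Adcy5 and 0.0985 for Adcy8.

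Adcy9 differed in the opposite direction to Adcy5, with 6074 and 9428 expected counts. Its log2 ratio of -0.49 (95% interval -0.53 to -0.44) was 1.40-fold in favour of replicate 2, with an adjusted p of 8.69e-94 by the two-sided exact binomial test. Adcy2 also had more counts in replicate 2, with a log2 ratio of -0.82 (95% interval -1.44 to -0.24) and an adjusted p of 0.00829 by the same exact binomial test. Under spike-in scaling the ratio of Adcy2 was -1.25, and it was called.

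The remaining members were not called under any scaling tried. Adcy7, at 0.48 (95% interval 0.39 to 0.58), was higher in replicate 1, and under spike-in scaling its ratio was 0.05 (adjusted p = 0.316, same exact binomial test). Adcy4 at 0.35, Adcy6 at 0.21 and Adcy3 at 0.11 were higher in replicate 1 by their counts, and each turned to the other direction under spike-in scaling, at -0.08, -0.22 and -0.32. For Adcy1, with a log2 ratio of -0.06 (95% interval -0.25 to 0.13), and Adcy10, with 0.72 (95% interval -0.18 to 1.68), the adjusted p was 0.636 and 0.151 by the same exact binomial test. The Adcy10 interval holds both 0 and a 2-fold difference.

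Spike-in scaling moved the median log2 ratio of all genes to -0.43. It also changed the direction of the calls over all genes: 62.9% were higher in replicate 1 under the scaling used here and 18.2% under spike-in scaling. A change of scale shifts all genes by almost the same amount, so a gene keeps its place against their median. Adcy3, Adcy4 and Adcy6 lay above that median.

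**Figure D2:**
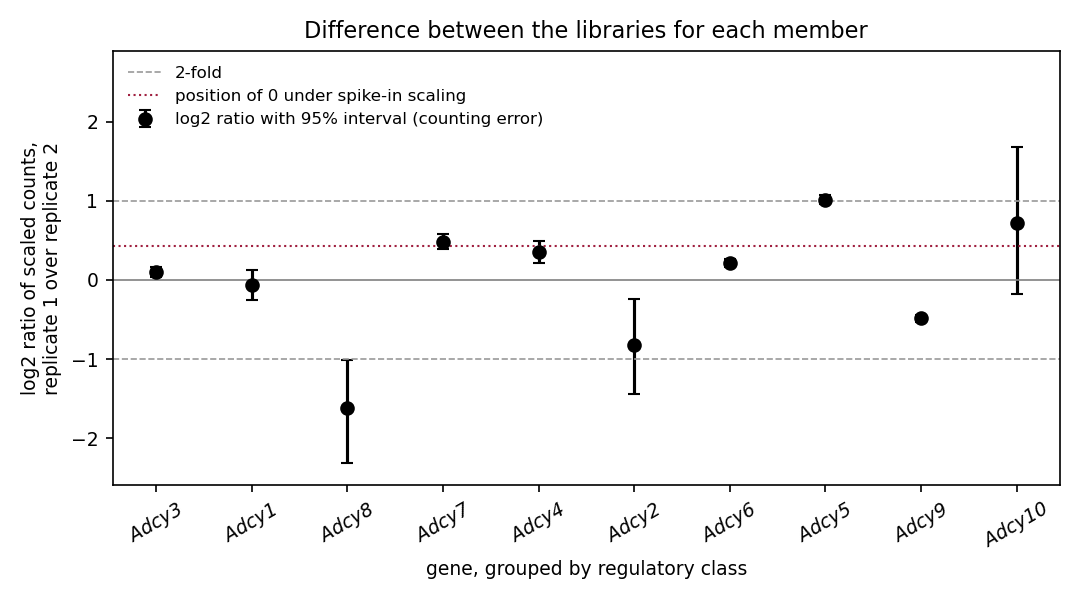
Log2 ratio of replicate 1 over replicate 2 for each member, from scaled counts, grouped by regulatory class, with 95% intervals for counting error. Adcy5 lies on the upper 2-fold line, Adcy8 below the lower one and Adcy9 at -0.49, and the dotted line shows where 0 would lie if the spike-ins set the scale.

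Markers of several cell types moved with these differences. All 6 of 6 cortex markers had more counts in replicate 2 by the adjusted p, as Adcy9 did, with Cyp21a1 at 14483 and 19341 TPM. Of the 8 fat markers, 7 had more in replicate 1 by the adjusted p, as Adcy5 did, with Cfd at 9884 and 3984 TPM. The sympathetic neuron markers, led by Prph at 8.30 and 1.70 TPM, were also higher in replicate 1, with 4 of 4 called. The liver markers, led by Ahsg at 3.31 and 12 TPM, were higher in replicate 2, with 4 of 4 called. Over all genes tested, 58.3% differed by the adjusted p and 6.92% were called. Their part in the members' differences was not tested.

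The transcript tables divided the reads of each gene between its annotated transcripts. Adcy2, Adcy5, Adcy6 and Adcy8 have a single transcript there. The share of a transcript is its percent of the gene's TPM, and the deposited credibility interval of TPM, whose level is not stated, is given where it bears on a difference.

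In Adcy9 the library difference lay mostly in a single transcript. Adcy9-202, which holds the stretch with the GT and AG ends, had 18.0 TPM in replicate 1 (interval 16.4 to 18.9) and 33.6 TPM in replicate 2 (interval 31.9 to 34.4). Adcy9-203, which lacks it, had 19.6 TPM (interval 18.5 to 20.3) and 22.5 TPM (interval 21.3 to 23.3). Both were higher in replicate 2, and for neither transcript did the intervals overlap between the libraries.

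By the estimated TPM, the leading transcript of Adcy9 differed between the libraries. In replicate 1, however, the intervals of Adcy9-202, 16.4 to 18.9 TPM, and Adcy9-203, 18.5 to 20.3 TPM, overlapped, so the lead there was not separated. Adcy9-203 led in replicate 1 with 51.0% of the gene's TPM and held 40.0% in replicate 2, while Adcy9-202 held 46.9% in replicate 1 and led with 59.7% in replicate 2. Transcripts for the protein of 1353 residues, which include the minor Adcy9-201, came to 49.0% and 60.0%. Among 6379 genes with more than 1 transcript and at least 431 counts in both libraries, 10.5% had another leading transcript in each library. The Adcy9-202 share differed by 12.7 percentage points, more than for 84.5% of those genes.

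Adcy9-202 and Adcy9-203 also start at different places, 4419808 and 4420498 on chromosome 16. The annotated exon 1 is 33 bases long in Adcy9-202 and 723 bases long in Adcy9-203. Reads over the start and over the stretch both entered the estimate, and which of them set the shares was not tested.

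In Adcy3 the same transcript led in both libraries. Adcy3-207, without the extra bases CAG, held 56.2% of the gene's TPM in replicate 1 and 61.5% in replicate 2. This difference was larger than for 57.7% of the genes compared. Of the 4 coding transcripts, those with the extra CAG, Adcy3-201 and Adcy3-204, held 21.9% of the coding TPM in replicate 1 and 13.4% in replicate 2, and those without it held 78.1% and 86.6%. Their proteins have 1145 and 1144 residues.

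Most TPM of the Adcy3 transcripts that hold the exon with alternative starts was assigned to the middle start site of Adcy3-204 and Adcy3-207. This site took 70.8% in replicate 1 and 78.3% in replicate 2. The upstream start, used by Adcy3-202 and the retained intron transcript Adcy3-208, took 22.9% and 21.5%. The downstream start of Adcy3-201 took 6.25% and 0.257%, and the intervals of its TPM, 0.431 to 2.49 and 3.67e-06 to 0.870, overlapped. Retained intron transcripts, with Adcy3-208 counted again, together held 16.6% and 17.3% of the gene's TPM.

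The beta-gamma-stimulated members Adcy7 and Adcy4 had the most unequal shares. Adcy7-202 led with 59.7% in replicate 1 and 86.1% in replicate 2, a difference larger than for 96.6% of the genes compared. In TPM it was 5.99 and 6.44, with overlapping intervals of 4.40 to 6.58 and 4.95 to 6.66. Adcy7-203 had 3.44 TPM (interval 2.63 to 4.33) in replicate 1 and 0.710 TPM (interval 0.376 to 1.18) in replicate 2, so the excess of Adcy7 in replicate 1 lay in Adcy7-203.

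Adcy4 showed the same form. Adcy4-202 led with 56.7% in replicate 1 and 82.7% in replicate 2, a difference larger than for 96.5% of the genes compared, while its TPM of 4.57 and 5.35 had overlapping intervals. Adcy4-201 had 3.49 TPM (interval 2.42 to 4.69) and 1.12 TPM (interval 0.402 to 2.08). The intervals of Adcy4-201 and of Adcy7-203 did not overlap between the libraries.

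Adcy1-201 held 100% of the Adcy1 TPM in both libraries. For Adcy10, Adcy10-210, an annotated retained intron transcript without a protein product, held 69.4% and 78.9% of a level of under 1 TPM, and 38.2% and 27.8% by the posterior mean of TPM. The coding Adcy10 transcripts summed to 0.0600 TPM in replicate 1 and 0 TPM in replicate 2. With 27 and 18 counts over 10 transcripts, the intervals of Adcy10-210, 0.0570 to 0.365 and 7.37e-07 to 0.209, overlapped.

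**Figure D3:**
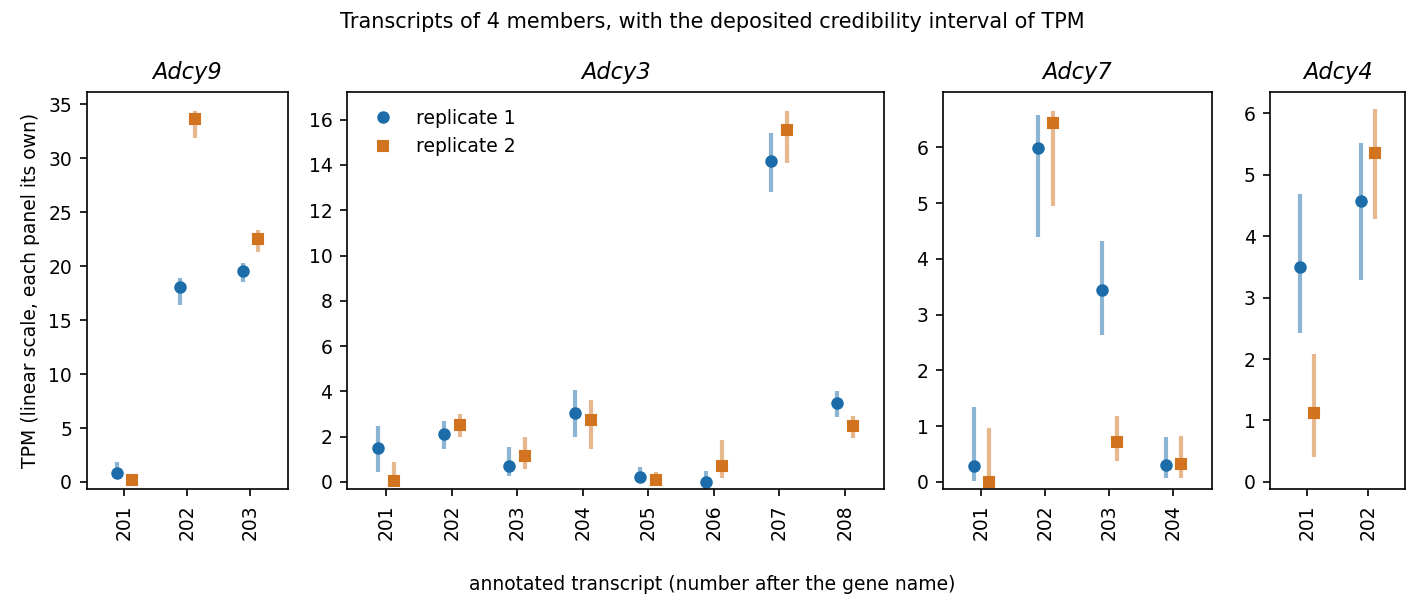
TPM of each annotated transcript of Adcy9, Adcy3, Adcy7 and Adcy4 in both libraries, with vertical lines for the deposited credibility interval and a linear axis of its own in each panel. Adcy9-202 reaches 33.6 TPM in replicate 2, and Adcy7-203 and Adcy4-201 are higher in replicate 1, while the leading transcripts Adcy7-202 and Adcy4-202 have overlapping intervals.

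The summed cyclases were far below Gnas, the gene of the stimulatory G protein alpha subunit that acts on them. Gnas had 1348 TPM in replicate 1 and 1581 TPM in replicate 2, which was 9.29 and 11.3 times the sum of all 10 cyclases. This gene-level value sums all annotated Gnas transcripts, and the part that encodes the subunit was not separated here. Of 7 alpha subunits, 6 were detected, with Gnai2, an inhibitory subunit, at 334 and 344 TPM and Gnao1 at 20.1 and 18.1 TPM. Gnal, the olfactory stimulatory subunit, was below 1 TPM at 0.900 and 0.810. Of 15 beta and gamma subunits, 13 were detected, led by Gnb2 at 1582 and 1693 TPM, Gng5 at 449 and 319 TPM and Gnb1 at 356 and 349 TPM, and Gng8 and Gng13 were below 1 TPM. Neither list had a member called between the libraries, against 6.92% of all genes tested.

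Of 21 receptors that couple to the stimulatory G protein, 11 were detected. The highest were Adrb3, an adrenergic receptor of fat, at 1004 and 439 TPM, the corticotropin receptor Mc2r at 145 and 264 TPM, and the parathyroid hormone receptor Pth1r at 52.2 and 37.7 TPM. Of the 16 tested, 3 were called, against 6.92% of all genes tested: Adrb3, Gipr and Htr7, the last from 21 and 6 counts. All 3 were higher in replicate 1, as were 62.9% of the calls over all genes. The list's median log2 ratio was 0.37. Below 1 TPM in both were Vipr1, Vipr2, Ptger2, Glp1r, Lhcgr, Htr4, Htr7, Drd1 and Crhr1.

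Of 15 receptors that couple to inhibitory G proteins, 10 were detected, led by the adenosine receptor Adora1 at 211 and 177 TPM, Ptger3 at 91.2 and 77.3 TPM and S1pr1 at 27.1 and 25.0 TPM. Of the 13 tested, 3 were called, against 6.92% of all genes tested. All 3 were higher in replicate 1, as were 62.9% of the calls over all genes: Adra2a, Adra2c and Drd4. Drd4, a dopamine receptor, had 26.9 and 1.41 TPM, a log2 ratio of 4.29. Adra2a, Oprm1, Chrm2 and Chrm4 were below 1 TPM in both.

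Among 12 regulators and scaffolds of the cyclases, 8 were detected. Mrap, the accessory protein that brings Mc2r to the cell surface, had 877 and 869 TPM, and Calm3, which encodes calmodulin, had 406 and 409 TPM. Of the 12 tested, Cap2 alone was called, higher in replicate 2, at 0.50 and 1.16 TPM, against 6.92% of all genes tested. Akap5, Akap6 and Mrap2 were below 1 TPM.

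Downstream of the cyclases, all 14 of 14 genes for protein kinase A and other cAMP effectors were detected. The highest were Prkar1a, a regulatory subunit, at 165 and 196 TPM, Prkar2b at 197 and 134 TPM, and the catalytic Prkaca at 125 and 152 TPM. None was called, against 6.92% of all genes tested. By the adjusted p alone, 10 were higher in replicate 2 and 2 in replicate 1. Over all genes tested, 58.3% differed by it, in either direction. Their median log2 ratio was -0.21.

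Phosphodiesterases degrade cAMP, and those matched were led by Pde8b at 165 and 173 TPM, above every cyclase. Pde7a had 25.4 and 36.2 TPM, and Pde3b, a form abundant in fat, had 31.8 and 9.31 TPM. Of 16 phosphodiesterases listed, 15 were matched and 11 were detected. Pde2a was not matched, so its level is not known here. Of 13 tested, Pde3b alone was called, at a log2 ratio of 1.82, against 6.92% of all genes tested. Pde1c, Pde4b and Pde11a were below 1 TPM. The matched genes, without Pde2a, summed to 284 and 276 TPM, against 145 and 140 TPM for the cyclases.

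The guanylyl cyclases, which make cyclic GMP, are the family nearest in function. Of 11 members, 4 were detected, and 3 had no counts in either library. Npr1, the receptor for atrial natriuretic peptide, had 437 TPM in replicate 1 and 364 TPM in replicate 2, which was 3.01 and 2.59 times the sum of all adenylyl cyclases. Npr2 had 38.2 and 33.8 TPM and Gucy1a1, a subunit of the soluble enzyme, had 5.37 and 7.91 TPM. Of 6 tested, Gucy1b2 alone was called, higher in replicate 2, from 10 and 40 counts, against 6.92% of all genes tested. It had 0.110 and 0.430 TPM. Gucy1a2, Gucy2c, Gucy2d, Gucy2e, Gucy2f and Gucy2g were also below 1 TPM. Npr1 thus held most of the TPM of its family, while Adcy9 held 26.4% and 40.1% of that of the adenylyl cyclases, a difference that was not tested.

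**Figure D4:**
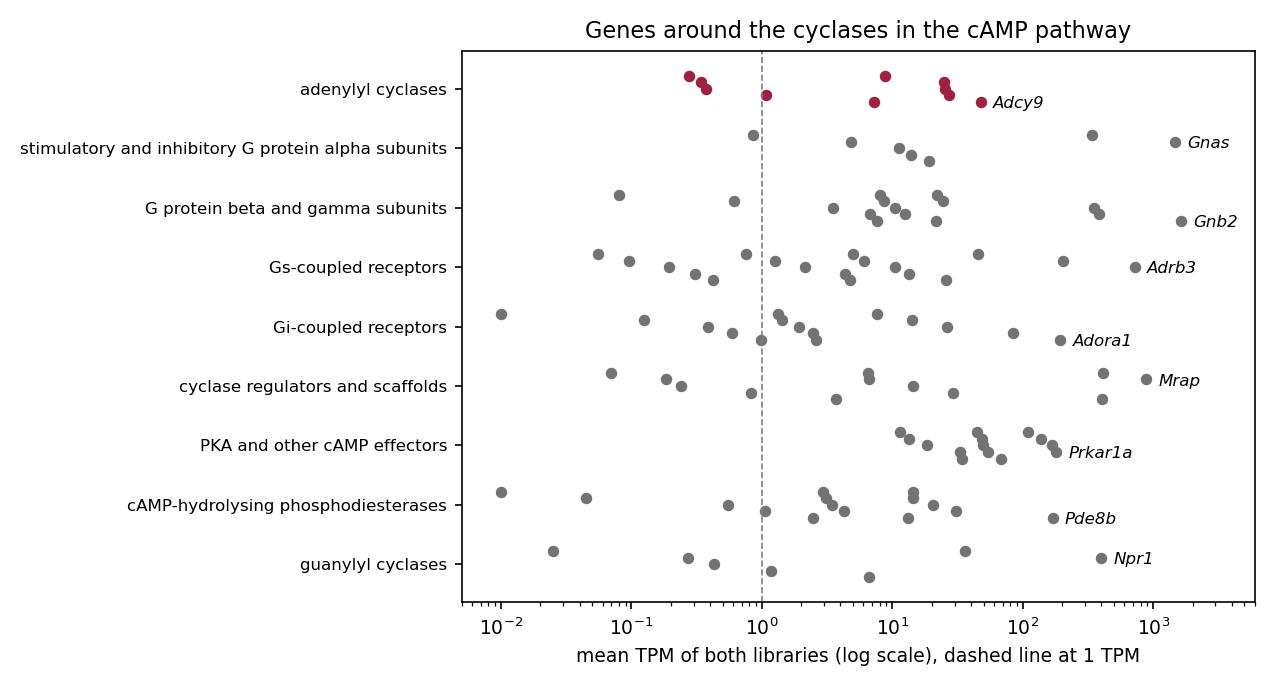
Mean TPM of both libraries for each gene of the pathway lists on a log axis, with the adenylyl cyclases in red, the highest gene of each list named and a dashed line at 1 TPM. The cyclases reach 47.4 TPM with Adcy9, below the highest gene of every other list, and genes with a mean under 0.01 TPM are not drawn.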

How the data were processed

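The members and lists were chosen with earlier results of these data known. Expected counts and TPM per gene and transcript were used as the authors deposited them, 1 table per library, made on mm10 and the annotation M4 according to deposited readme files. An expected count is the authors' estimate of read pairs and need not be whole, and TPM is scaled to a fixed total. The aligner and quantifier were not given in the sources used here. Each transcript percent was computed from the deposited TPM. Of 43346 identifiers, 42462 matched GENCODE M21 (GRCm38). Some transcripts of Adcy4 to Adcy8 have another length in M21, so their starts were not tied to the files.

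Expected counts were rounded and scaled with TMM from edgeR 4.0.16 in R 4.3.3, with a prior count of 0.5 for the log2 ratio, over genes whose counts summed to 20 or more. The two-sided exact binomial test ran in scipy 1.17.1 and has a Clopper-Pearson interval of 95%. It was checked on simulated counts with counting noise only, so the check does not cover further spread between libraries. Intervals describe counting error alone because PCR copies of a molecule are counted as well. The libraries differed by far more than counting noise (mean chi-square 103 per gene). The labels call them biological replicates but tie them to the same donor identifier. Whether they came from separate animals is thus not settled, and their spread may be technical.

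All members are named, with the 3 highest genes of each pathway list, those below 1 TPM in both libraries and those called, and the highest gene of the cell type lists that moved with a member, except for a gene of these lists that is not reported here. Alternatives were other detection levels, the deposited posterior mean of TPM, protein-coding genes only, DESeq2 1.42.0 size factors, library totals, spike-ins, another prior count, no minimum fold, no filter and edgeR's exact test. The mm9 tables of junctions and contigs, the FPKM values and Pde2a were not analysed here.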

Additional observations from a re-analysis of the deposited data

How the results depend on the processing

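Limits: with 2 libraries of 1 group there is no replicated test. The ratios of Adcy2, Adcy8 and Adcy10, with 110, 120 and 45 summed counts, have wide intervals. Taken from either library alone, which with 2 libraries is no check of stability, the family total was 140 to 145 TPM, the Adcy9 share 26.4% to 40.1%, the calcium-inhibited share 30.3% to 42.5%, the calcium-stimulated share 18.2% to 19.2% and the beta-gamma share 10.3% to 12.6%. A library ratio cannot be had without one of its libraries.

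The number of members detected was 6 at a level of 2 TPM and 7 under the other settings. Over protein-coding genes only, the family total was 155 TPM. The calcium-stimulated share was 16.9% of expected counts, which carry gene length. Members called numbered 8 without a minimum fold and 0 with edgeR's exact test at an assumed coefficient of variation of 0.2, and all genes called numbered 9219 and 244, against 2 and 1095. The counts under the other scalings and without the filter on low counts stayed within 1.5 times. Under spike-in scaling 3 log2 ratios changed direction, Adcy3 at -0.32, Adcy4 at -0.08 and Adcy6 at -0.22, which follows from the shift of -0.43 in all genes. Adcy5 fell below 2-fold there, at 0.58, and Adcy2 passed it, at -1.25. The identity of the proteins was not run.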
